A study of Homo sapiens with 6 samples.

Results

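Claudins are the proteins that close, or open selectively, the space between epithelial cells at the tight junction. Described here are 8 claudin genes (CLDN1, CLDN2, CLDN3, CLDN4, CLDN7, CLDN12, CLDN15 and CLDN23), the gene of occludin (OCLN) and that of the scaffold protein ZO-1 (TJP1). They were selected by name, as the rows whose Ensembl identifier carries one of these symbols in gencode release 44. This gave 10 of the 60676 genes listed in each table, and all 10 passed the filter on low counts in each comparison.

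The cells were HT29, an established human colon adenocarcinoma line, of wild-type genotype only in the sense of not engineered. They were kept for 48 h in control medium (untreated), in medium lacking histidine, or in medium lacking tryptophan, and 2 libraries of each condition were sequenced. The study used tryptophan depletion to represent shortage of an amino acid in general, so the comparisons ask how these genes responded to each depletion and whether the responses differed. RPMI was the base of the medium without histidine and DMEM F-12 that of the medium without tryptophan, and the base of the control medium is not named for these libraries in the sources used here. For another experiment of the study with the same depletions, complete RPMI is named as the control. If it was used here too, untreated and histidine-depleted cells shared their base. HT29 cells were routinely grown in DMEM with fetal bovine serum, while both depleted media held dialyzed serum. The serum of the control medium is not named for these libraries either. Untreated cells may thus have differed from depleted cells in serum or base as well, which was not tested. In the comparisons that involve tryptophan-depleted cells with cells kept in RPMI, an effect of the base and one of the missing amino acid cannot be told apart. Nothing in the sources says that the 2 libraries of a condition came from separate cultures. The p-values therefore measure only the spread between these samples, which may be technical.

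In an epithelium, claudins of neighbouring cells bind each other and form strands around the cell near its top. The kind of claudin decides what passes: some seal the strand, while others line pores that let small ions and water through. Occludin sits in the same strands, and ZO-1 ties both to the actin skeleton inside the cell. In the colon, the sealing claudins dominate in the lining of the surface, while the pore-forming CLDN2 is known to be low in healthy adult tissue and raised in inflammation and in tumours.

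The libraries held 46390819 to 64388876 reads. Markers of colon epithelium (10 genes) summed to between 394823 and 596976 normalized counts, and all 10 were above 3 reads in each library except GPA33, which had 3 in histidine-depleted replicate 1. Markers of mesenchymal (8 genes), leukocyte (8) and endothelial cells (4) summed to at most 245.7, 388 and 61.2. Of these, PTPRC (leukocytes), COL1A2 (mesenchyme) and CDH5 (endothelium) were at no more than 3 reads in all 6 libraries. Others were present, with 134 to 212 reads of FN1 and 30 to 70 of COL1A1 (mesenchyme). ITGAM (leukocytes) had 4 to 114 reads, and the endothelial PECAM1 and VWF had 9 to 44 and 4 to 47. The leukocyte sum was 184 to 218 in untreated, 157 to 162 in histidine-depleted and 380.0 to 388 in tryptophan-depleted libraries, of which CD14, a receptor for bacterial lipopolysaccharide, made up 104 and 119, 50.6 and 63.1 and 379.9 and 367, and 5, 6 and 6 of its 8 genes were at no more than 3 reads. The endothelial sum was 45.8 to 61.2, 52.9 to 55.1 and 26.6 to 29.9 in the same order. The mesenchymal sum ran from 236 to 245.7 in untreated, 228 to 231 in histidine-depleted and 199.5 to 215 in tryptophan-depleted libraries. The epithelial sum was 394823 to 420508 in untreated libraries, 565964 to 596976 after histidine and 572496 to 575332 after tryptophan depletion. Keratins carry most of this sum, and its members did not move together: after histidine depletion 5 were higher (KRT8, KRT19, KRT20, EPCAM and CDH1) and 5 lower (KRT18, VIL1, CDH17, CDX2 and GPA33), and after tryptophan depletion 6 were higher and 2 (CDX2 and GPA33) lower, where 77.3% and 70.8% of all genes passed the test (limma, adjusted p under 0.05). After histidine depletion GPA33 reached the filter on low counts only through untreated cells (means of 77.1 untreated and 6.44 without histidine). It could only come out lower, and these counts are not read as a result about the markers. The part of these marker genes in the results was not tested. In bulk RNA, fewer cells expressing a gene and less of its RNA per cell cannot be told apart.

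The genes did not move as a block. After histidine depletion CLDN2 fell furthest, with a mean 19.9-fold lower than in untreated cells, while CLDN12, CLDN1, CLDN15, TJP1, CLDN4 and OCLN rose and CLDN3, CLDN7 and CLDN23 fell. After tryptophan depletion CLDN2 and CLDN1 fell most and CLDN15, CLDN12, OCLN, TJP1 and CLDN7 rose. CLDN1 and CLDN7 thus moved in opposite directions in the depletions. Values are normalized counts, meaning reads divided by a size factor of the library. Each per-library value below comes from all 6 libraries scaled together. Each test against untreated cells was made by limma on log2(normalized count + 1) within the table of that depletion, and the log2 differences are on that scale.

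Of the 10 genes, 6 were higher and 4 lower after histidine depletion at an adjusted p under 0.05. Over all 18288 genes tested in that comparison 77.3% passed the same threshold, 39.1% as higher and 38.2% as lower. After tryptophan depletion 5 were higher, 4 lower and 1 (CLDN4) did not pass, where 70.8% of 17960 genes passed, 36.1% as higher and 34.8% as lower. Between the depletions 4 were higher after histidine depletion, 4 were lower and 2 (CLDN3 and CLDN23) did not pass, where 76.7% of 18264 genes passed, 38.7% as higher and 38.0% as lower. With most genes past the threshold in each comparison, 10, 9 and 8 of 10 are not read as particular to these genes. Their median log2 difference was 0.51 after histidine and 0.19 after tryptophan depletion, beside 0.010 and 0.013 over all genes tested. Both depletions were compared with the same untreated libraries. As limma pools the spread over genes, adjusted p-values can be very small with 2 libraries per group. Without the mean-variance trend of limma, the adjusted p after histidine depletion was 0.00245 for CLDN1 and 0.000897 for CLDN2, the highest over the settings tried.

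**Figure D1:**
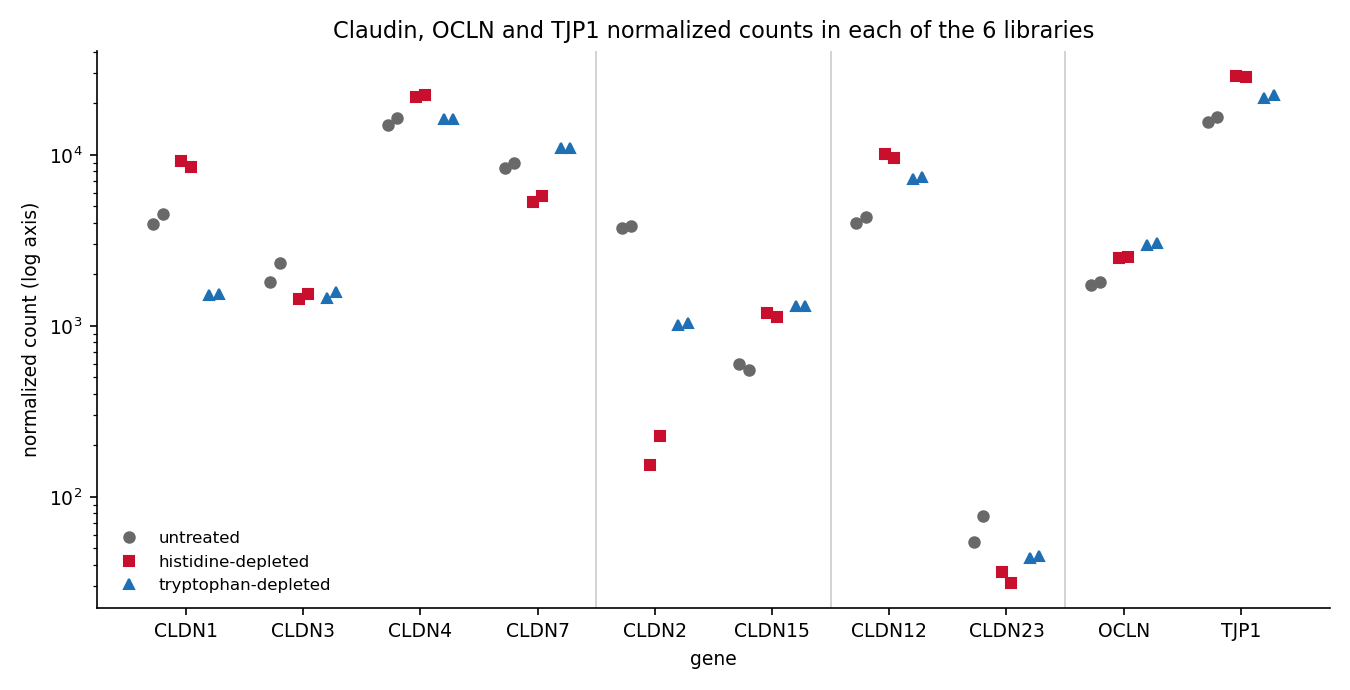
Normalized counts (log axis) of the 10 genes in each of the 6 libraries, with circles for untreated, squares for histidine-depleted and triangles for tryptophan-depleted libraries, and vertical lines between barrier-forming claudins, channel-forming claudins, other claudins and OCLN with TJP1. CLDN2 lies at 3746 and 3827 in untreated and at 153 and 226 in histidine-depleted libraries, and CLDN1 is highest after histidine and lowest after tryptophan depletion.

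**Figure D2:**
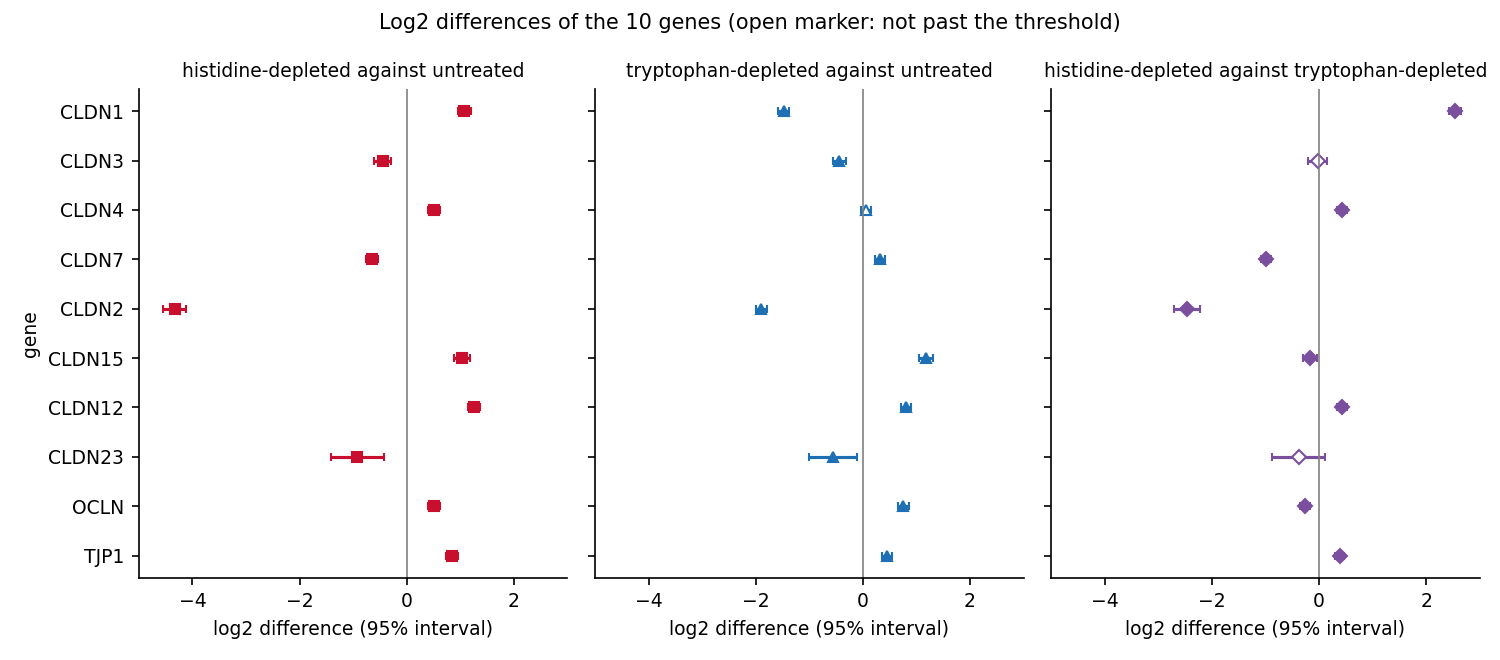
Log2 differences of the 10 genes with their 95% intervals (limma, n = 2 libraries per group) for each depletion against untreated cells and for histidine against tryptophan depletion. Open markers did not pass an adjusted p of 0.05: CLDN4 after tryptophan depletion (0.055) and, between the depletions, CLDN3 (-0.027) and CLDN23 (-0.38).

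Sequences upstream of the start sites of 3 of the genes are shown because these genes responded differently and their windows hold letters that factors known to act on junction genes can bind. SNAI1 and ZEB1, repressors of epithelial genes, bind CACCTG on either strand. TGANTCA, with any base at N, is a loose form of the site of the AP-1 family. The match in CLDN2 and the first in CLDN4 read TGATTCA. Capitals mark these letters, and the windows hold the 250 bases before an annotated start (RefSeq, GRCh38.p14), written 5′ to 3′ on the strand of the gene. CLDN7 has its second listed start at chr17:7262479-7262728 (minus strand), CLDN4 its window at chr7:73830746-73830995 (plus strand) and CLDN2 its first listed start at chrX:106899914-106900163 (plus strand).
CLDN7: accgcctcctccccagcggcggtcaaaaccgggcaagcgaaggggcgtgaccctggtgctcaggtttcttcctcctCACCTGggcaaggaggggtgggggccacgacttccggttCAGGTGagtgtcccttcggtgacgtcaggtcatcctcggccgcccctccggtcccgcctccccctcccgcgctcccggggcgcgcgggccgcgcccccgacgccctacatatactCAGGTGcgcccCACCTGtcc
CLDN4: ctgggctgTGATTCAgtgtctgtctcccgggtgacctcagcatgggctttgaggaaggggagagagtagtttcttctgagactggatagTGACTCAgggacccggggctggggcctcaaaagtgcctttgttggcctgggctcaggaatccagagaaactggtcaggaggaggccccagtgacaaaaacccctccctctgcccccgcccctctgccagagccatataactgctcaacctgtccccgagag
CLDN2: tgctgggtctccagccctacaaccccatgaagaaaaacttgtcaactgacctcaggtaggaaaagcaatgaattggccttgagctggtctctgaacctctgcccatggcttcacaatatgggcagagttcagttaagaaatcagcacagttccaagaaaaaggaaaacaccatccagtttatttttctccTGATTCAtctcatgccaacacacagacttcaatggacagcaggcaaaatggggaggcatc

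The CLDN7 window shown held 4 copies of CACCTG on either strand, and the window of its first listed start held 0. Of 35116 RefSeq promoter windows of the same length 17.5% held at least 1 copy and 0.464% held 3 or more. CLDN4 held 2 copies of TGANTCA and the CLDN2 window shown held 1 (the window of its other listed start held 0), as did CLDN15, where 6.57% of all windows held this motif. In all, 15 start sites of 9 of the genes were in the RefSeq table. OCLN held 1 CACCTG in each of 2 overlapping windows and TJP1 1 at the first of its 4 listed starts, while the windows of CLDN1, CLDN3 and CLDN12 held neither motif. A match of letters is a description of the sequence and was not tested for binding.

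CLDN1 (ENSG00000163347, chr3:190305707-190322446, minus strand of GRCh38) encodes a claudin that seals the strand and is indispensable for the barrier of the skin. Untreated libraries held 3959 and 4518 normalized counts of it, histidine-depleted libraries 9152 and 8521 and tryptophan-depleted libraries 1516 and 1531. The groups did not overlap and untreated cells lay between the depletions. Histidine depletion raised CLDN1 from 4204 ± 403 to 8819 ± 473 normalized counts (mean ± SD of 2 libraries each; log2 difference 1.07, standard error 0.0589, adjusted p = 2.64e-14), and tryptophan depletion lowered it from 4167 ± 389 to 1490.4 ± 19.0 (-1.48, standard error 0.0521, adjusted p = 8.74e-58). Compared directly, it was 5.80-fold higher after histidine than after tryptophan depletion (2.53, standard error 0.0550, adjusted p = 9.85e-17), which ranked 438 from the highest of 18264 genes tested.

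CLDN7 (ENSG00000181885, chr17:7259903-7263983, minus strand) encodes a claudin spread along the sides of intestinal cells as well as at the junction. It moved the other way round, with 8395 and 8982 normalized counts in untreated cells, 5284 and 5736 without histidine and 10899 and 10982 without tryptophan. Again no library of a group overlapped another group. The fall after histidine depletion was -0.65 on the log2 scale (standard error 0.0535, adjusted p = 6.66e-11) and the rise after tryptophan depletion 0.33 (0.0469, 4.08e-10), with a direct difference of -0.99 (0.0457, 1.57e-12). Of its exonic bases, 10.8% are shared with an unnamed gene on the same strand and 1.52% with ELP5 on the other, and the annotation holds the pseudogene CLDN7P1, so part of its reads could be assigned otherwise.

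CLDN4 (ENSG00000189143, chr7:73799542-73832690, plus strand), a sealing claudin that is abundant in carcinomas, had 14868 and 16329.7 normalized counts in untreated cells. It rose to 21725 and 22349 after histidine depletion (log2 difference 0.51, standard error 0.0548, adjusted p = 8.55e-09). This rise was 0.26 with quantile normalization, still past the threshold. After tryptophan depletion it had 16285 and 16261 normalized counts, between the untreated libraries. The log2 difference of 0.055 did not pass (adjusted p = 0.309, 95% interval -0.041 to 0.15), was -0.013 without untreated replicate 1, and was 0.12 and past the threshold without untreated replicate 2.

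CLDN3 (ENSG00000165215, chr7:73768997-73770270, minus strand), a further sealing claudin, was lower in both depletions, with 1809 and 2318 normalized counts in untreated, 1437 and 1543 in histidine-depleted and 1452 and 1584 in tryptophan-depleted libraries. The untreated libraries lay apart from each other but above the rest. The differences were -0.45, standard error 0.0790, adjusted p = 1.58e-05 after histidine and -0.44, standard error 0.0593, adjusted p = 3.49e-11 after tryptophan depletion. They were -0.27 and -0.26 without untreated replicate 2, and without the mean-variance trend of limma neither passed. The depletions overlapped for CLDN3, with a difference of -0.027 (95% interval -0.20 to 0.15, adjusted p = 0.779).

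CLDN2 (ENSG00000165376, chrX:106900164-106930861, plus strand) forms pores for small cations and water and was the gene of the 10 with the largest log2 difference in each comparison with untreated cells. Its normalized counts were 3746 and 3827 in untreated cells, 153 and 226 without histidine and 1007 and 1040.2 without tryptophan. The order of the groups was untreated, tryptophan-depleted, histidine-depleted and no library overlapped another group. Histidine depletion lowered it from 3755 ± 67.5 to 189 ± 51.1 normalized counts (mean ± SD of 2 libraries each; log2 difference -4.33, standard error 0.107, adjusted p = 6.05e-21). On this scale it ranked 29 from the lowest of 18288 genes tested. Tryptophan depletion lowered it from 3723 ± 57.1 to 1001 ± 28.7 (-1.89, standard error 0.0535, adjusted p = 4.22e-69), 3.72-fold, and it ranked 632 from the lowest of 17960 genes. The direct difference was -2.46 (0.114, 1.76e-12). RIPPLY1, on the opposite strand, shares 9.99% of the exonic bases of CLDN2.

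CLDN15 (ENSG00000106404, chr7:101232092-101238820, minus strand), the claudin of the sodium pores of the intestine, rose in both depletions. It went from 596 and 553 normalized counts in untreated cells to 1194 and 1130.4 without histidine and 1314 and 1311 without tryptophan. The log2 differences were 1.03, standard error 0.0720, adjusted p = 3.11e-12 and 1.18, standard error 0.0672, adjusted p = 5.58e-36. Its difference between the depletions was small (-0.18, standard error 0.0611, adjusted p = 0.0153) and did not pass in 6 of 15 alternative settings, among them the fits that left out histidine-depleted replicate 2 (-0.14), tryptophan-depleted replicate 1 (-0.17) or tryptophan-depleted replicate 2 (-0.18). The channel-forming claudins of this set thus moved in opposite directions in each depletion.

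CLDN12 (ENSG00000157224, chr7:90383721-90513402, plus strand), a claudin without the tail motif by which most claudins hold ZO proteins, rose most of the 10 genes after histidine depletion. Normalized counts of 3983 and 4331 in untreated cells became 10113 and 9559 without histidine and 7227 and 7407 without tryptophan. All groups were apart, with log2 differences of 1.25, standard error 0.0537, adjusted p = 2.12e-16 and 0.81, standard error 0.0474, adjusted p = 1.05e-34. Histidine depletion gave the higher level (0.43, standard error 0.0457, adjusted p = 1.62e-07), by 0.28 with quantile normalization. Other genes on the same strand, among them CDK14, GTPBP10 and PTTG1IP2, share 17.6% of its exonic bases.

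CLDN23 (ENSG00000253958), a claudin known from the lining of the colon, was the scarcest. It had 54.7 and 77.6 normalized counts in untreated cells, 36.1 and 31.5 without histidine and 43.8 and 44.9 without tryptophan. Its fall after histidine depletion was -0.92, standard error 0.239, adjusted p = 0.00127. After tryptophan depletion the difference was -0.55, standard error 0.225, adjusted p = 0.0229, and it did not pass in 6 of 14 alternative settings, in which lay the fits without untreated replicate 2 (-0.30), without tryptophan-depleted replicate 1 (-0.53) and without tryptophan-depleted replicate 2 (-0.58). The depletions did not overlap, though their difference did not pass (-0.38, 95% interval -0.88 to 0.11, adjusted p = 0.146).

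OCLN (ENSG00000197822, chr5:69492292-69558104, plus strand), whose product is a membrane protein of the same strands, rose in both depletions. It had 1739 and 1803 normalized counts in untreated cells, 2505 and 2509 without histidine and 2974 and 3043 without tryptophan. Here tryptophan depletion gave the larger rise, 0.76, standard error 0.0518, adjusted p = 8.48e-29 against 0.51, standard error 0.0552, adjusted p = 9.02e-09, with a direct difference of -0.26, standard error 0.0448, adjusted p = 4.28e-05. The annotation holds the pseudogene OCLNP1, so its reads are uncertain to that extent.

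TJP1 (ENSG00000104067, chr15:29699367-29968915, minus strand), the gene of ZO-1, had 15456 and 16593 normalized counts in untreated cells, 28861 and 28637 without histidine and 21598 and 22498 without tryptophan. No group overlapped another. The rise was 0.85, standard error 0.0537, adjusted p = 3.73e-13 after histidine and 0.45, standard error 0.0491, adjusted p = 1.79e-15 after tryptophan depletion. Histidine depletion gave the higher level by 0.38 (0.0425, 2.55e-07), or by 0.23 with quantile normalization.

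Levels of different genes were compared per length, as RPKM over the union of a gene's exons. In untreated cells CLDN7 (67.7 RPKM) and CLDN4 (64.4) led, followed by CLDN3 (31.4), TJP1 (27.5), CLDN1 (22.7), CLDN2 (21.5) and CLDN12 (12.02), with CLDN15 (3.86), OCLN (3.05) and CLDN23 (0.593) last. The libraries of CLDN3 and TJP1 overlapped, as did those of CLDN1 and CLDN2, and the other neighbours in this order did not. After histidine depletion the order was CLDN4 (80.3), TJP1 (43.5), CLDN1 (41.7), CLDN7 (37.9), CLDN12 (25.1), CLDN3 (20.03), CLDN15 (6.88), OCLN (3.81), CLDN2 (0.950) and CLDN23 (0.268), with an overlap of TJP1 and CLDN1. After tryptophan depletion it was CLDN7 (80.7), CLDN4 (63.7), TJP1 (35.8), CLDN3 (21.9), CLDN12 (20.1), CLDN15 (8.34), CLDN1 (7.72), CLDN2 (5.52), OCLN (4.91) and CLDN23 (0.377), with no overlap between neighbours. CLDN2, which overlapped CLDN1 in untreated cells, was second to last after histidine depletion, above CLDN23 with no overlap. Over the length of the longest coding transcript the order changed in places. CLDN12 was higher, at 22.6, 47.3 and 37.7 RPKM in the untreated, histidine-depleted and tryptophan-depleted groups. In untreated cells TJP1 (39.1) then stood above CLDN3 (31.4), CLDN2 (24.8) above CLDN1 (23.9) and OCLN (5.34) above CLDN15 (5.24). After histidine depletion CLDN7 (49.1) and CLDN12 stood above CLDN1 (43.9), and after tryptophan depletion CLDN12 stood above CLDN3 (21.9), and OCLN (8.59) above CLDN1 (8.13) and CLDN2 (6.36).

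The composition of the claudin transcripts shifted while their sum in RPKM stayed narrow. RPKM is scaled to the total reads of a library, not by the joint size factors, so this is stated on that scale only. Summed over the 24 measured claudins, the level per length was 216 to 234 RPKM in the 6 libraries. CLDN2 and CLDN15 together held 11.8% and 10.7% of it in untreated, 3.62% and 3.57% in histidine-depleted and 6.37% and 6.33% in tryptophan-depleted libraries. CLDN1, CLDN3, CLDN4 and CLDN7 together held 81.6% and 82.7%, 82.2% and 83.0% and 80.0% and 79.6%. Within this steady sum the genes changed places. CLDN1 held 9.85% and 10.2% in untreated cells, 19.96% and 18.4% without histidine and 3.56% and 3.52% without tryptophan. CLDN7 held 30.4% and 29.4%, 16.8% and 18.0% and 37.2% and 36.8% in the same order, and CLDN4 28.6% and 28.3%, 36.6% and 37.2% and 29.5% and 28.9%. These shares rest on the exon lengths of the annotation and describe RNA, not protein or junctions.

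**Figure D3:**
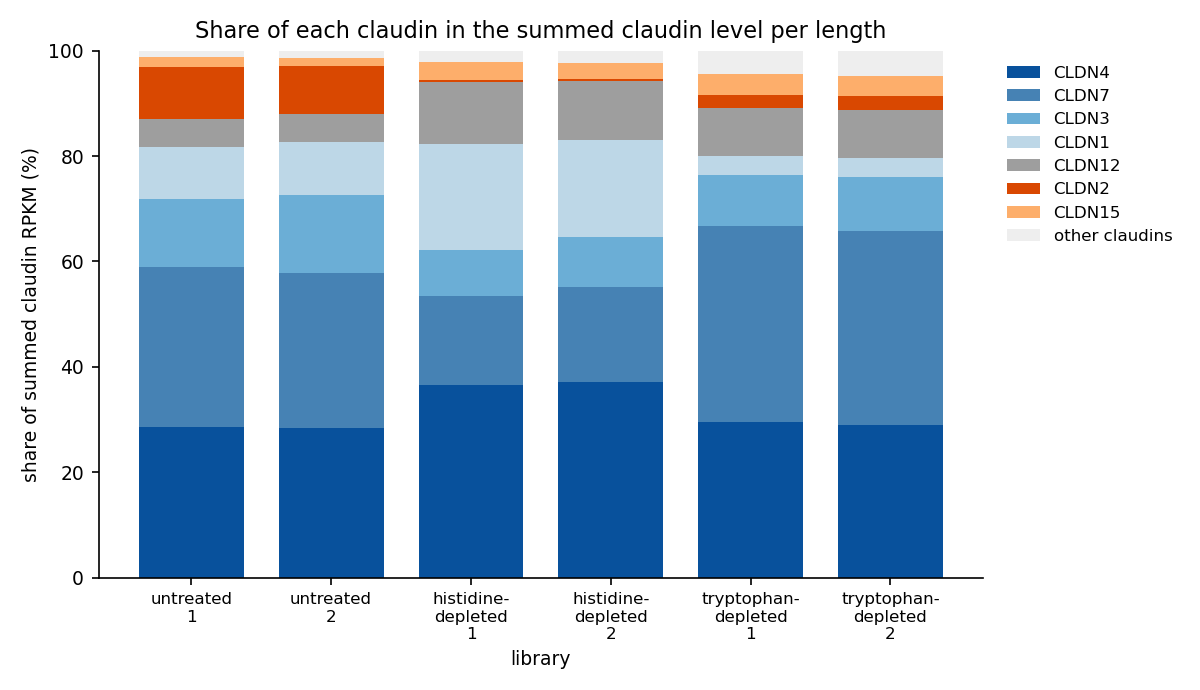
Share of each claudin in the summed RPKM of 24 claudins, as stacked bars for each of the 6 libraries. CLDN2 (dark orange) takes 9.91% and 9.15% in untreated libraries, 0.354% and 0.518% after histidine and 2.51% and 2.55% after tryptophan depletion, and the replicates of a condition look alike.

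The coding sequences of these genes were compared for the codons of the depleted amino acids, since neither was used to select them. CLDN1 and CLDN3 hold 0 histidine codons in 211 and 220 codons. Of 19755 protein-coding genes, 409 (2.07%) hold 0. CLDN4 and CLDN7 hold 1 each, CLDN2 and CLDN15 2 each, CLDN23 4, CLDN12 6 and OCLN 8, and TJP1 holds 57 in 1768 codons, or 3.22% against a median of 2.43% over all genes. Tryptophan is common in claudins. It takes 2.87% of the codons of CLDN4, 2.74% in CLDN23 and 2.73% in CLDN3, against a median of 1.13% over all genes, and all 24 claudins lie above that median. CLDN2, with 3 tryptophan codons (1.30%), has the lowest share of the 8 claudins here, and OCLN (0.958%) and TJP1 (0.566%) lie under the median. A relation between these shares and the transcript changes was not tested.

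**Figure D4:**
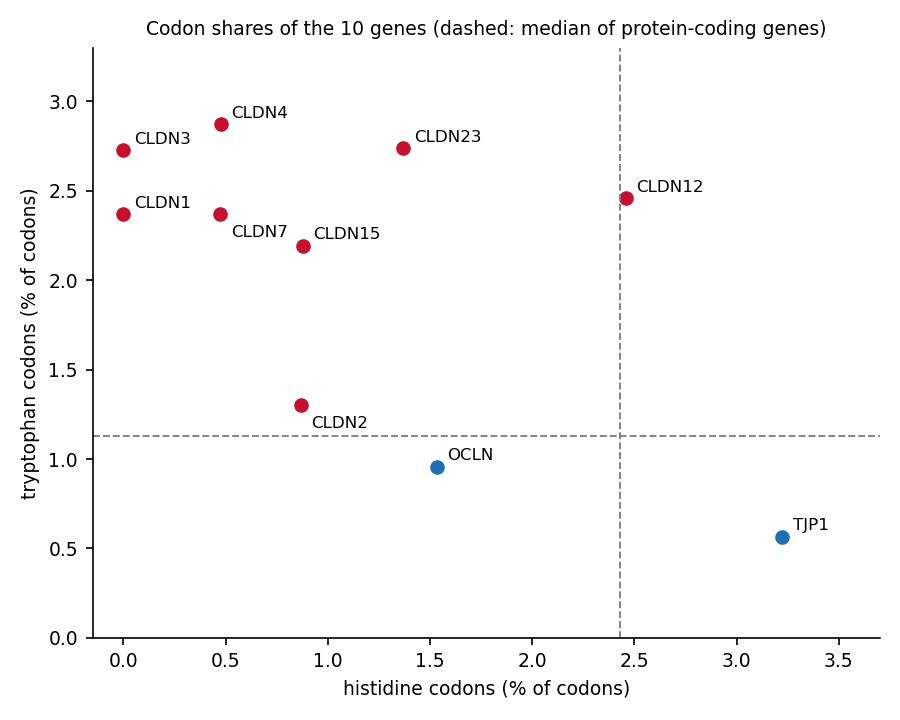
Share of histidine codons (horizontal axis, percent of codons) and of tryptophan codons (vertical axis) in the canonical coding sequence of each of the 10 genes, with claudins in red, OCLN and TJP1 in blue and dashed lines at the medians of 19755 protein-coding genes (2.43% and 1.13%). The claudins lie above the tryptophan median, and all of them but CLDN12 (2.46%) lie left of the histidine median.

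Of the 16 other claudin genes 3 were abundant enough to test in each depletion and 4 between them. CLDN9, a claudin of the inner ear that is low in the colon, was higher in both, with 142 and 169 normalized counts in untreated, 338 and 338 in histidine-depleted and 772 and 852 in tryptophan-depleted libraries (1.13, standard error 0.119, adjusted p = 5.56e-09 and 2.37, standard error 0.0963, adjusted p = 7.74e-51). CLDN11 did not pass in any of the 3 comparisons (log2 differences of 0.52, 0.39 and 0.11). CLDN6 had 5.47 and 3.98 normalized counts in untreated, 59.6 and 66.1 in histidine-depleted and 5.34 and 9.16 in tryptophan-depleted libraries, and CLDN10 had 1.09 and 2.98, 5.42 and 13.2 and 24.5 and 22.0. Against untreated cells, each of these genes reached the filter only through the depletion in which it was high, CLDN6 without histidine and CLDN10 without tryptophan, so it could only come out higher, and no count over the tested genes is given. CLDN6, CLDN10 and CLDN11 are named after their values were seen and rest on few reads.

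Among 33 other tight junction genes (angulins, junctional adhesion molecules, scaffolds, polarity proteins and signalling adaptors), 15 of 31 tested were higher and 14 lower after histidine depletion, with a median log2 difference of 0.11, where 77.3% of all genes tested passed in either direction. JAM2 (means of 3.23 untreated and 25.5 without histidine) and MAGI2 (20.5 and 5.82) reached the filter only through their higher group. Their direction was fixed by that, and the counts are not read as a result about the list. After tryptophan depletion 13 of 30 were higher and 7 lower (median 0.038), against 70.8% of all genes, and between the depletions 15 of 31 were higher and 12 lower (median 0.13), against 76.7%. Between the depletions the filter ran over all 6 libraries. JAM2 (25.5 without histidine and 4.50 without tryptophan) again reached it only through its higher group, so its direction was fixed. MAGI2 (5.82 and 15.6) reached it also through the untreated libraries (20.5), so the filter did not fix its direction there. JAM3, an adhesion molecule of junctions, fell in both depletions (-2.13 and -2.37), and so did AMOT, an adaptor that binds YAP (-1.65 and -2.58). Both rest on few reads. JAM3 had 137 to 140 normalized counts in untreated, 28.0 to 33.6 in histidine-depleted and 24.7 to 27.7 in tryptophan-depleted libraries. AMOT had 122 and 140 normalized counts in untreated, 38.9 and 42.7 in histidine-depleted and 13.9 and 32.0 in tryptophan-depleted libraries. Its relative AMOTL2 rose in both, from 4346 ± 80.1 to 10997 ± 39.5 normalized counts after histidine (1.34, standard error 0.0489, adjusted p = 9.77e-18) and from 4309 ± 68.1 to 8296 ± 299 after tryptophan depletion (0.94, standard error 0.0468, adjusted p = 1.07e-41). CGNL1 (paracingulin), a scaffold between junction and cytoskeleton, had 390.2 and 407 normalized counts in untreated cells, 405 and 453 without histidine and 1886 and 1875 without tryptophan. It rose after the latter alone (2.23, standard error 0.0671, adjusted p = 8.68e-66), and the direct difference was -2.13 (1.83e-14). ARHGEF2, an exchange factor for RhoA held at the junction, and TJP3, the gene of ZO-3, were lower after histidine than after tryptophan depletion by -1.47 and -1.08 (adjusted p = 1.01e-15 and 2.86e-12). MPDZ was listed at 0 in all 6 libraries.

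In the adherens junction, which lies beneath the tight junction, 6 of 11 genes were higher and 3 lower after histidine depletion, 6 higher and 5 lower after tryptophan depletion, and 4 higher and 6 lower between them, beside the same 77.3%, 70.8% and 76.7% of all genes. VCL, the gene of vinculin, which links adhesions to actin, had 7690.4 and 8119 normalized counts in untreated cells, 29162 and 28710.4 without histidine and 5238 and 5486 without tryptophan (2.43, standard error 0.0410, adjusted p = 8.85e-18 between the depletions). The genes of nectins, adhesion molecules of this junction, differed among themselves. NECTIN2, named after its values were seen, had small differences (-0.11, adjusted p = 0.0684 after histidine and 0.12, adjusted p = 0.0236 after tryptophan depletion). NECTIN4 went from 795 and 818 to 386 and 409 after histidine and to 1653 and 1628 after tryptophan depletion (-2.04, standard error 0.0624, adjusted p = 6.29e-15 between them), a pattern with the same signs as that of CLDN7. NECTIN1 fell by 1.83 and 0.38 on the log2 scale and NECTIN3 by 0.80 and 0.89 after histidine and tryptophan depletion. CDH1, the gene of E-cadherin, rose in both (0.49, standard error 0.0537, adjusted p = 1.33e-08 after histidine and 0.71, standard error 0.0513, adjusted p = 7.38e-27 after tryptophan depletion).

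**Figure D5:**
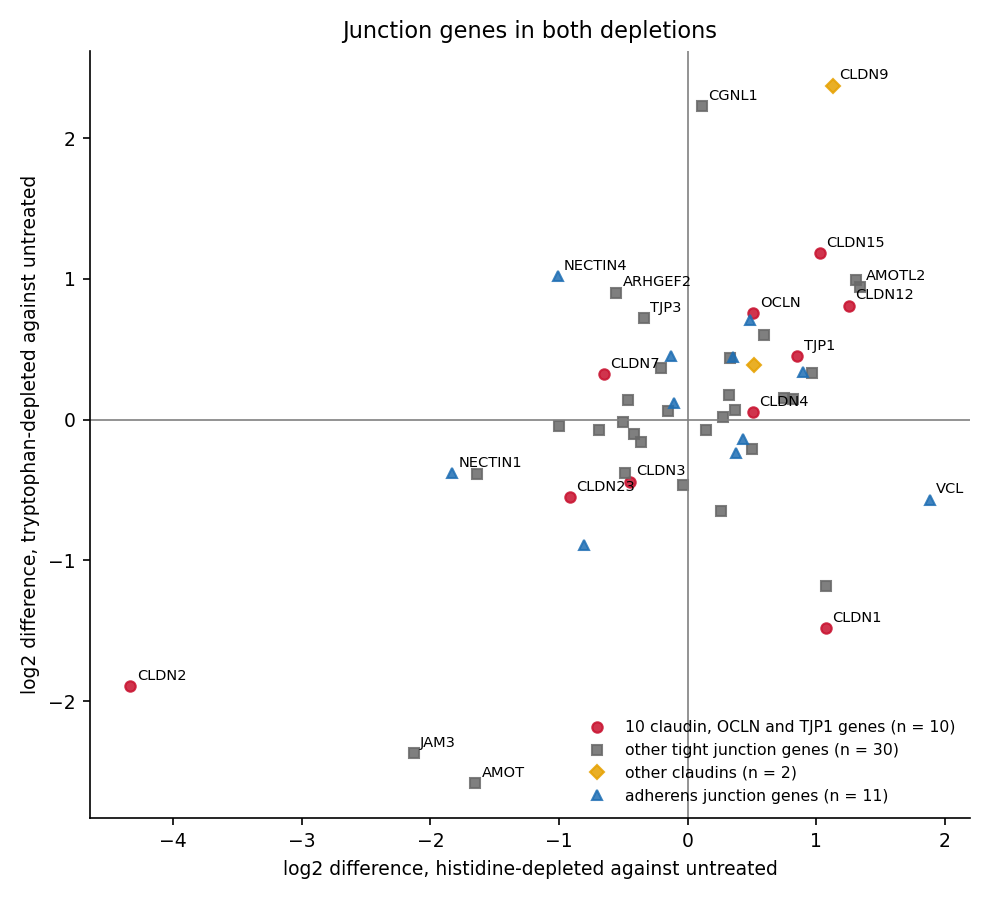
Log2 difference from untreated cells after histidine depletion (horizontal axis) and after tryptophan depletion (vertical axis) of the 10 genes, 30 other tight junction genes, 2 other claudins and 11 adherens junction genes tested in both. The 10 genes and some of the others that the text names are labelled. Both axes share the untreated libraries. CLDN2 lies alone at the far left (-4.33), and CLDN1 and CLDN7 lie in opposite quadrants.

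Transcription factors known to act on claudin and junction genes were looked at next, 16 in all. Of 12 tested after histidine depletion 5 were higher and 5 lower, of 12 after tryptophan depletion 7 and 4, and of 11 between the depletions 5 and 6, where 77.3%, 70.8% and 76.7% of all genes passed. Against untreated cells, CDX1 reached the filter only through those cells (mean 20.4, against 0 without histidine and 4.04 without tryptophan). It could only come out lower, and the counts are not read as a result about the list. The repressors SNAI1 and ZEB1 rose in both depletions and more after histidine depletion. SNAI1 had 84.2 and 95.5 normalized counts in untreated cells, 759 and 689 after histidine and 179 and 178 after tryptophan depletion, with a direct difference of 2.01, standard error 0.111, adjusted p = 1.81e-11. ZEB1 had 24.0 and 16.9, 259 and 197 and 53.4 and 62.3 in the same order (1.95, standard error 0.217, adjusted p = 2.58e-07). KLF4, a factor of differentiated epithelium, went from 677 and 692 to 5424 and 5269.6 and 2745 and 2743 (2.97, standard error 0.0562, adjusted p = 5.26e-23 after histidine depletion). HNF4A, which maintains the intestinal epithelium, went the other way, from 7153 and 7371 to 1006 and 1128 and 2968 and 2828 (-2.76, standard error 0.0575, adjusted p = 2.93e-22 and -1.33, standard error 0.0475, adjusted p = 3.38e-57). Its groups have the order of those of CLDN2, untreated, tryptophan-depleted, histidine-depleted. CDX2 (caudal homeobox), a colon identity factor named after its values were seen, fell by 1.37 after histidine depletion and by 0.24 after tryptophan depletion. Whether any of these factors acts on the claudin genes in these cells was not tested.

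Genes whose 6 log2 values, centred on the untreated mean, lay nearest to those of each gene were sought among 12471 genes whose mean reached 100 normalized counts. CLDN2 had few near it: 1 gene lay within a distance of 0.5 (ZDHHC8BP, 0.498), followed by CABP1 (0.636) and NDRG2 (0.653). CLDN1 had 7 within that distance, led by ARL6IP1 (0.170), POLR2L (0.191) and ANXA6 (0.257). CLDN7 had 660, led by EPS8L2 (0.072), AGA (0.073) and PLOD3 (0.078), and CLDN4, whose changes were smaller, had 1311, led by NCOA4 (0.027). For the others the nearest were TMUB1 (0.081) for CLDN3, GPR157 (0.105) for CLDN15, SDE2 (0.062) for CLDN12, THSD4 (0.264) for CLDN23, ARAP2 (0.036) for OCLN and AKIRIN2 (0.058) for TJP1. Among the 10 genes themselves the nearest pairs were CLDN12 with CLDN15 (0.641) and OCLN with TJP1 (0.648). These distances describe 6 libraries of 3 conditions.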

How the data were processed

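RNA was sequenced from 2 libraries per condition. The authors used STAR 2.7.10a for alignment to GRCh38 and HTSeq 2.0.5 for counts on exons (gencode 38), and deposited normalized counts, a signal made by dividing counts by DESeq2 size factors, in a table per depletion that holds the same untreated libraries. The libraries were stranded and carried molecular identifiers. Whether counting made use of strand, these identifiers or multiply mapped reads is not given in the sources used here. Whole reads were recovered for 100% of values (tolerance 1e-06 of a read). They were brought to one scale by median-of-ratios factors over all 6 libraries for the direct comparison and the per-library values. RPKM was made from the recovered reads and the total reads of each library, without these factors.

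limma 3.58.1 in R 4.3.3 (trend, two-sided) was run on log2(normalized count + 1) over all genes with a mean of at least 10, Benjamini-Hochberg adjusted, with calls at 0.05. For genes with few counts, differences on this scale are understated. Gene annotation was gencode 44 (60357 of 60676 identifiers matched), and codons were counted in its canonical transcripts. Replicates differed beyond counting noise, with a chi-square per degree of freedom of 8.77, 4.03 and 1.85 in untreated, histidine-depleted and tryptophan-depleted pairs over genes with at least 20 reads. The genes and lists were chosen with earlier results of these data known. All 10 genes were named; of each other list up to 3 genes per comparison with the largest change past the threshold and a mean of at least 100 in the higher group, and for each gene the 3 genes nearest in pattern, of which some are not given. Genes given outside this rule were chosen after their values were seen (NECTIN2, CDX2, CLDN6, CLDN10, CLDN11, MPDZ and the marker genes). Alternatives were other pseudocounts (0.5, 8), filters, variance models, scalings, edgeR 4.0.16, DESeq2 1.42.0, a limit on the fold, a replicate block and each library left out. The code was tested on simulated data. Tables were made in Python 3.11.15 with pandas 2.3.3 and numpy 2.4.6, and plots with matplotlib 3.10.9.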

Additional observations from a re-analysis of the deposited data

Results flagged for a closer look

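CLDN1 and CLDN7 changed in opposite directions in the depletions, and the test of the difference itself passed for both. CLDN1 rose after histidine depletion and fell after tryptophan depletion, with a difference of 2.53 between them on the log2 scale (limma, adjusted p = 9.85e-17), and both libraries of each condition lay on the side of their group. CLDN7 fell after histidine depletion and rose after tryptophan depletion, with a difference of -0.99 (adjusted p = 1.57e-12), again with both libraries of each condition apart from the others. The media of the depletions also differed in their base (RPMI without histidine, DMEM F-12 without tryptophan), and the part of the base in these differences cannot be told apart from that of the amino acid.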

How the results depend on the processing

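Of 428 recomputed log2 differences of the 10 genes, 409 kept their direction and side of the threshold, 14 lost the threshold, 1 gained it and 4 changed sign. The sign changes were in small differences that had not passed: CLDN4 after tryptophan depletion, which was -0.039 with quantile normalization and -0.013 without untreated replicate 1, and CLDN3 between the depletions, which ran from -0.090 to 0.036 with a library left out and was above 0 when histidine-depleted replicate 1 (0.024) or tryptophan-depleted replicate 2 (0.036) was the one. CLDN4 after tryptophan depletion passed in 1 of 14 settings, without untreated replicate 2 (0.12), with adjusted p-values from 0.000220 to 0.737 over the settings. The losses were in CLDN3 after each depletion (limma without the trend), CLDN23 after tryptophan depletion (6 of 14 settings, adjusted p from 0.00308 to 0.321) and CLDN15 between the depletions (6 of 15, from 0.00304 to 0.118). CLDN23 gave no value with a mean of at least 50 after histidine depletion and between the depletions. The causes were not tested.

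A required absolute log2 difference of at least 1 left 4 of the 10 genes called after histidine depletion (3 higher, 1 lower; 5949 of all genes), 3 after tryptophan depletion (1 higher, 2 lower; 3674 of all genes) and 2 between the depletions (1 higher, 1 lower; 5794 of all genes). Without the trend 9, 7 and 7 of the 10 genes passed after histidine depletion, after tryptophan depletion (2 of them lower) and between the depletions, and 13118, 11071 and 13404 of all genes. With each library left out in turn, 10 of 10 genes passed after histidine depletion (12957 to 13851 of all genes), 8 to 9 after tryptophan depletion (11005 to 12585) and 7 to 8 between the depletions (12954 to 14261); a group then has 1 library, assumed to vary like the other groups in the fit, so these counts are no measure of stability. Same-numbered libraries did not deviate together (correlations of deviations 0.042, 0.0020 and -0.041), so the numbers were not taken as pairs. With a replicate block 10, 9 and 8 genes passed, as without it, and 14432, 12766 and 14069 of all genes. No scaling moved the median of all genes by over 0.1. CLDN23 has the fewest counts of the 10 genes, 31.5 to 77.6 per library when normalized, and its differences have the widest intervals.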
